A study of Mus musculus with 12 samples.

Results

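Hearts of mice that received angiotensin II (Ang II) together with losartan were compared with hearts of saline-infused controls, gene by gene. The comparison held the 3 libraries labelled Ang II + losartan and the 3 labelled Control, 6 of the 12 heart RNA sequencing libraries of the study, and it asked how far the transcriptome of a losartan-treated heart still differed from that of a heart infused with saline in place of the peptide. Of 47729 genes counted in the files, 15336 had enough reads to be tested.

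All mice were male C57BL/6 animals of 8 weeks. The Ang II + losartan group was infused subcutaneously with Ang II from osmotic pumps for 28 days and drank losartan at 0.6 g/L during the last 2 weeks, so that these hearts had been under Ang II before the drug began. The Ang II group had the same infusion with vehicle during the last 2 weeks, and it is used below only for the level that each gene reached without the drug. The Control group had pumps with saline. Another 3 libraries, from mice given Ang II with oral EHP-101 at 20 mg/kg, entered the fitted model but are not described. The title of each Control library adds Ang II control in brackets, and these libraries were taken to be the saline hearts. A group given saline and losartan was not analysed here, and the Ang II dose is not given in the sources used here. The labels do not say whether replicates came from separate animals, so p-values cover only the variation among the libraries at hand, part of which may be technical. RNA came from heart tissue that mixes cell types, in which fewer cells of a type and less RNA per cell cannot be told apart.

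Ang II is the effector peptide of the renin-angiotensin system. Through its type 1 receptor, encoded in mice by Agtr1a and Agtr1b, it constricts vessels and raises blood pressure, and in the heart it drives fibroblasts to deposit collagen and other matrix, in part through TGF-beta. Losartan is a selective blocker of that receptor and a common drug against hypertension. A pressure-loaded mouse ventricle typically makes more of the slow myosin heavy chain Myh7 and of the natriuretic peptides Nppa and Nppb.

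Sequencing depth was even, with 22574756 to 23730465 counts per library in the Ang II + losartan group and 22155418 to 23766752 in the Control group. Levels are given below as CPM, the counts of a gene scaled to a common library size after TMM normalisation, in the order of replicates 1, 2 and 3. The 6 defining markers of heart muscle, Myh6, Myl2, Tnnt2, Tnni3, Ttn and Actn2, each had at least 32476 reads in every library. Of the defining markers of skeletal muscle, Myh1, Myh2 and Myh4 had at most 11 reads in any library. So did Sftpc of lung and Ccl21a of lymph node. The other defining markers of these tissues had more. Their highest library had 103 reads for Tnnt3 and 26 for Mylpf, both of skeletal muscle. It had 21 reads for Scgb1a1 of the airway, and 33 for Cd79a and 12 for Cd3e of lymphoid tissue. Control replicate 2 stood apart from the other 11 libraries. Its score on principal component 1, with 35.3% of the variance, was -84.4, with the others between -12.7 and 32.4, it had the smallest TMM factor (0.839) and 19876 genes with reads against 21358 to 22308 in the others. Counts within the gene lists are therefore also given without it where they differ.

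With all libraries, 0 of 15336 genes (0%) had a Benjamini-Hochberg adjusted p under 0.05 by the quasi-likelihood test of edgeR, and the smallest adjusted p was 0.456. At an unadjusted p under 0.05 there were 1640 genes (10.7%), of which 849 were higher (5.54%) and 791 lower (5.16%) in Ang II + losartan hearts than in Control hearts. Without Control replicate 2 these numbers were 554 and 309. They were 821 and 1290 without Control replicate 1, and 1517 and 1848 without Control replicate 3. Without losartan replicate 1 they were 473 and 404, and without losartan replicate 2 they were 633 and 454. Without losartan replicate 3 they were 851 and 635. List counts with a library left out are to be read beside these, and other list counts beside the shares with all libraries. DESeq2, run on the same counts, called 21 genes higher (0.154% of the 13647 it gave an adjusted p) and 1 lower (0.00733%). Limma-voom called 0 genes, and 3 with weights for library quality. No gene named below therefore passed the edgeR test in this comparison, and its values are given as a description of these libraries. Ang II against Control, which uses the same Control libraries, had 79 genes higher (0.515%) and 4 lower (0.0261%) past the edgeR threshold. Losartan-treated against Ang II hearts, the test of the difference between those comparisons, had 0 genes past it (0%), with 347 higher (2.26%) and 942 lower (6.14%) before adjustment at the same p, and DESeq2 called 103 lower (0.7%) and 5 higher (0.034%).

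**Figure D1:**
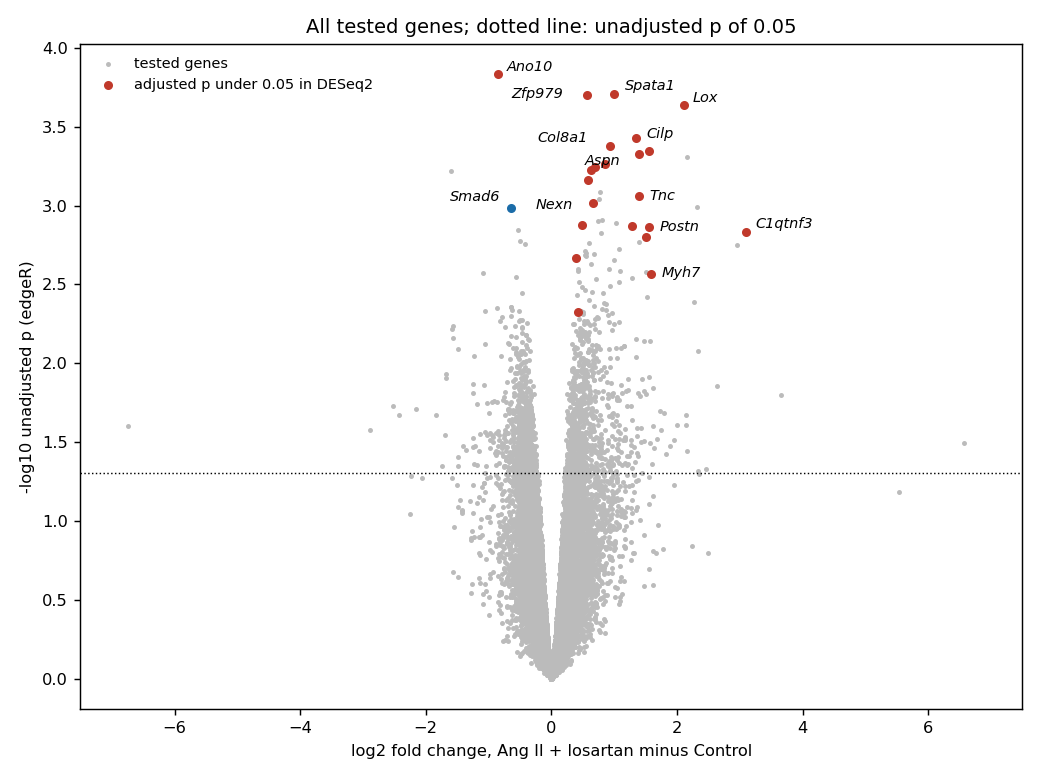
Each point is 1 of 15336 tested genes, with the log2 fold change of Ang II + losartan minus Control on the x axis and the −log10 of the unadjusted p of edgeR on the y axis. Red points are the 22 genes that DESeq2 called, 21 of them on the right, and the blue point is Smad6, which DESeq2 did not call.

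Among the DESeq2 calls, Lox, Cilp, Aspn, Col8a1, Tnc, Postn and Eln are genes of the extracellular matrix, and their means in losartan-treated hearts lay between those of Ang II and Control hearts. Lox, the lysyl oxidase that crosslinks collagen and elastin, had 37.04, 21.7 and 9.82 CPM in Ang II + losartan hearts, 61.3, 35.8 and 84.6 CPM in Ang II hearts and 5.68, 4.52 and 5.63 CPM in Control hearts. Every losartan-treated library was above every Control library, replicate 3 least so. Its log2 fold change against Control was 2.11 ± 0.41 (SE), with an unadjusted p of 0.000232 in edgeR and an adjusted p of 0.000736 in DESeq2. Cilp, a glycoprotein of cartilage that scarring hearts also make, had 160.1, 129 and 73.03 CPM in Ang II + losartan hearts, 404, 303 and 385 CPM in Ang II hearts and 56.6, 36.4 and 50.1 CPM in Control hearts. Here too the losartan-treated and Control libraries did not overlap, and Ang II libraries were higher than both (log2 fold change against Control 1.34 ± 0.28, adjusted p = 0.00831 in DESeq2). Groups that do not overlap, with losartan-treated libraries on top, were found in 1268 of all tested genes (8.27%), and the reverse in 1088 (7.09%). The naming rule required this of Lox and Cilp.

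The group means of further matrix genes had the same order. Col8a1, a short-chain collagen of vessel walls, averaged 87.7 ± 18.5 CPM in Ang II + losartan hearts, 180.1 ± 34.2 CPM in Ang II hearts and 45.9 ± 7.59 CPM in Control hearts (SD, n = 3 each). Its highest Control library (54.2 CPM) was below its lowest losartan-treated one (67.6 CPM), and DESeq2 gave an adjusted p of 0.0168. Tnc, the matricellular protein tenascin C, had 10.4, 8.82 and 5.44 CPM in Ang II + losartan hearts, 28.6, 15.3 and 31.6 CPM in Ang II hearts and 3.17, 1.99 and 4.13 CPM in Control hearts, with a log2 fold change of 1.39 ± 0.32 against Control. Aspn, a small leucine-rich proteoglycan that binds collagen, had 163, 89.99 and 61.3 CPM in Ang II + losartan hearts, 196, 138 and 191 CPM in Ang II hearts and 36.95, 42.3 and 40.01 CPM in Control hearts. Its replicate 1 reached the Ang II range and replicate 3 did not. Postn, the periostin of activated fibroblasts, had 630.4, 297 and 149 CPM in Ang II + losartan hearts, 789.8, 559.8 and 847 CPM in Ang II hearts and 121, 128 and 119.6 CPM in Control hearts. The 3 Control libraries were almost level while the losartan-treated ones spread widely, and without losartan replicate 1 the log2 fold change of Postn against Control was 0.86 in place of 1.55. Eln, the elastin of vessel walls, had 106, 198 and 109 CPM in Ang II + losartan hearts, 319, 179 and 363 CPM in Ang II hearts and 67.2, 35.95 and 66.5 CPM in Control hearts. Losartan replicate 2 was the high library here, in contrast to the genes above. DESeq2 gave adjusted p values of 0.0219, 0.0104, 0.0241 and 0.0308 for Tnc, Aspn, Postn and Eln.

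**Figure D2:**
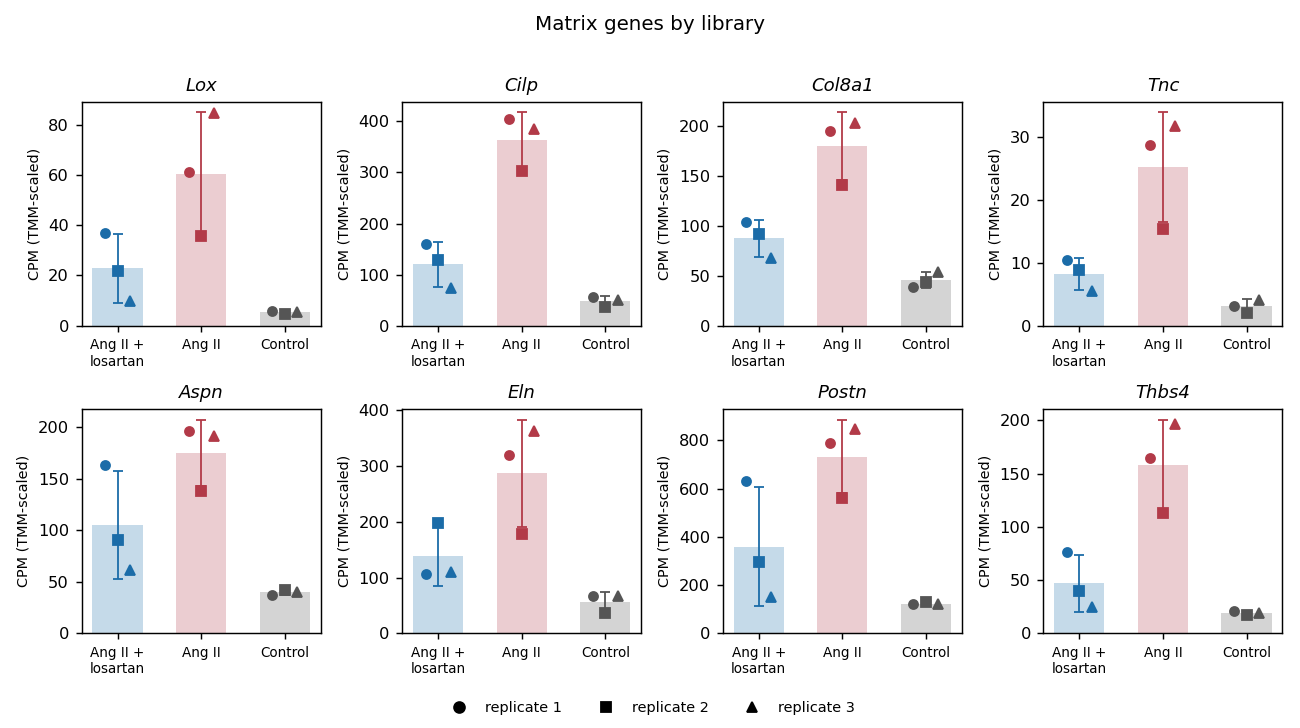
Levels in TMM-scaled CPM (y axis, from 0) of 8 matrix genes in Ang II + losartan, Ang II and Control hearts (x axis), where symbols are single libraries, bars are means and whiskers are SD over 3 libraries. For Lox, Cilp, Postn and Thbs4 the Control libraries lie close together, the Ang II means are the highest, and the losartan-treated libraries spread above Control with replicate 1 on top.

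In GRCm38 with GENCODE M21, Lox (ENSMUSG00000024529) spans chr18:52516067-52529867, Cilp (ENSMUSG00000042254) chr9:65265180-65280605 and Col8a1 (ENSMUSG00000068196) chr16:57624258-57754737. Tnc (ENSMUSG00000028364) spans chr4:63959785-64047015, Aspn (ENSMUSG00000021388) chr13:49544443-49567565, Postn (ENSMUSG00000027750) chr3:54361109-54391037 and Eln (ENSMUSG00000029675) chr5:134702593-134747323. Some exon bases of Lox (30), Aspn (7), Tnc (176) and Eln (267) are shared with a gene on the other strand. The same holds for Eif5b (1643), Myh7 (1149), Ltbp2 (764), Ccn2 (665), Yes1 (635), Loxl3 (535), Nppa (532), Mt2 (432), Ace (295) and Spata1 (169), described further on, and for Pi16, Xirp2, Bhlhe40, Casq1, Tubb4b, Ptbp3, Olfr558, Myh6, Myl2 and Ttn. Col3a1, Dnm3os, Mrps6, Nexn, Srprb and Tnni3 share exon bases with a gene on their own strand. The library kit keeps no strand, so reads from bases shared across strands could not be told apart by gene.

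The list of fibrillar and network collagens had a median above Control and below Ang II. All 19 members had a positive log2 fold change in losartan-treated against Control hearts. The median was 0.65 beside -0.02 for all tested genes, and it was -0.99 against Ang II hearts. Their sum was 2447, 4167 and 3867 CPM in Ang II + losartan hearts and 1530 to 2963 CPM in Control hearts. Losartan replicate 1 was thus within the Control range. In Ang II hearts the sum was 4461 to 6958 CPM. At an unadjusted p under 0.05, 6 of the 19 were higher and 0 lower, against 5.54% of all genes higher. Without Control replicate 2, in which the collagens were lowest, the median was 0.32 and 3 were higher, and without losartan replicate 2 they were 0.44 and 3. Col5a2, a chain of the fibril-nucleating type V collagen, had 141, 150.2 and 104 CPM in Ang II + losartan hearts, 288, 182 and 328 CPM in Ang II hearts and 78.5, 45.6 and 83.98 CPM in Control hearts, and losartan-treated and Control libraries did not overlap. Its relative Col5a3 had 61.7, 64.6 and 75.1 CPM in Ang II + losartan hearts, 80.7, 59.1 and 68.2 CPM in Ang II hearts and 52.9, 29.2 and 40.7 CPM in Control hearts, so that here losartan-treated and Ang II libraries overlapped. Col3a1, a major fibril collagen, averaged 646 ± 168 CPM in Ang II + losartan hearts, 1453 ± 462 CPM in Ang II hearts and 391 ± 127 CPM in Control hearts (SD, n = 3 each; log2 fold change against Control 0.72 ± 0.31). For Col1a1, the main chain of type I collagen, the values were 140.1, 215 and 164 CPM in Ang II + losartan hearts, 442, 249 and 493 CPM in Ang II hearts and 146, 51.1 and 143 CPM in Control hearts, and the losartan-treated libraries overlapped with Control (log2 fold change 0.61 ± 0.37, unadjusted p = 0.125, and 0.27 without Control replicate 2). Against Ang II hearts, 14 of the 19 collagens were lower in losartan-treated hearts at an unadjusted p under 0.05 (6.14% of all genes), and 0 passed the adjusted threshold. In Ang II against Control hearts, 8 of the 19 rose past the adjusted threshold.

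Matricellular proteins and glycoproteins of the matrix also had a positive median. Of 25 tested, 22 were positive against Control, with a median log2 fold change of 0.52. With an unadjusted p below 0.05, 8 were higher and 0 lower (5.54% and 5.16% of all tested genes). The median was 0.28 and 7 were higher without Control replicate 2. Thbs4, a thrombospondin of loaded muscle and tendon, had 76.2, 40.2 and 24.5 CPM in Ang II + losartan hearts, 165, 113 and 197 CPM in Ang II hearts and 21.1, 17.4 and 18.9 CPM in Control hearts. Losartan replicate 3 was barely above the Control libraries. Cthrc1, a secreted protein of activated fibroblasts, had 6.88, 2.93 and 0.9698 CPM in Ang II + losartan hearts, 13.9, 7.68 and 17.3 CPM in Ang II hearts and 0.543, 0.646 and 0.209 CPM in Control hearts. All Control libraries were below 1 CPM, as was losartan replicate 3. Thbs4 and Cthrc1 were chosen after their values were seen.

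Among the proteins that process or degrade the matrix, the picture differed between members. Loxl3, a further lysyl oxidase, had 17.7, 15.97 and 11.3 CPM in Ang II + losartan hearts, 36.7, 24.3 and 39.9 CPM in Ang II hearts and 10.2, 6.997 and 9.64 CPM in Control hearts, which put all losartan-treated libraries just above Control. Yet over the 19 tested genes of collagen crosslinking and processing the median log2 fold change against Control was 0.03 (-0.05 without Control replicate 2). At an unadjusted p under 0.05, 2 of them were higher, as were 5.54% of all tested genes. The matrix proteases and their inhibitors had a median of 0.47 over 18 genes with 3 higher, and of 0.23 without Control replicate 2, with 4 higher and 1 lower. Mmp2, a gelatinase, had 109, 154 and 115 CPM in Ang II + losartan hearts, 272, 183 and 275 CPM in Ang II hearts and 84.9, 55.9 and 96.96 CPM in Control hearts. Its membrane-bound activator Mmp14 had 31.6, 33.5 and 26.4 CPM in Ang II + losartan hearts, 54.4, 38 and 53.4 CPM in Ang II hearts and 22.7, 15.02 and 23.3 CPM in Control hearts. For both genes the losartan-treated libraries were above all Control and below all Ang II libraries. Adamts5, an aggrecanase that cleaves proteoglycans, differed in its order. It had 52.7, 49.3 and 40.1 CPM in Ang II + losartan hearts, 40.9, 37.6 and 42.1 CPM in Ang II hearts and 31.7, 25.3 and 34.7 CPM in Control hearts, so that losartan-treated libraries overlapped with or exceeded Ang II libraries (log2 fold change against Control 0.63 ± 0.14, adjusted p = 0.0267 in DESeq2). Timp1, an inhibitor of metalloproteinases, had 11.5, 9.49 and 5.06 CPM in Ang II + losartan hearts, 22.6, 18.1 and 56.4 CPM in Ang II hearts and 5.39, 8.29 and 3.63 CPM in Control hearts, with overlap between losartan-treated and Control libraries.

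The small leucine-rich proteoglycans had a median log2 fold change of 0.31 over 10 genes. At an unadjusted p under 0.05, 4 were higher (5.54% of all tested genes). The median was 0.19 and 1 was higher without Control replicate 2, and 1 was also higher without losartan replicate 1 or without losartan replicate 2. Ogn, osteoglycin, had 213, 161 and 143 CPM in Ang II + losartan hearts, 259, 212 and 240.2 CPM in Ang II hearts and 136, 107 and 139.8 CPM in Control hearts, with losartan replicate 3 just above the highest Control library. C1qtnf3, a secreted protein of the C1q and TNF related family, had 4.69, 1.34 and 0.675 CPM in Ang II + losartan hearts, 4.97, 3.904 and 8.66 CPM in Ang II hearts and 0.334, 0.161 and 0.2503 CPM in Control hearts. Its 3 Control libraries were all near 0, and a single losartan-treated library, replicate 1, was in the Ang II range.

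General markers of fibroblasts lay, as a list, near the median of all genes. Their median log2 fold change against Control was -0.11 over 14 genes, with 0 at an unadjusted p under 0.05 in either direction (0.06 with 1 higher and 1 lower without Control replicate 2), and their summed level was 2682 to 3171 CPM in Ang II + losartan hearts, 3444 to 4214 CPM in Ang II hearts and 2336 to 3630 CPM in Control hearts. Of the 14, 6 had a positive log2 fold change. With no overlap, 1 member lay above Control and 1 below it (8.27% and 7.09% of all tested genes). Ly6a and Mfap5 overlapped with Control, with log2 fold changes of -0.39 and 0.66. Pi16, a marker of resting adventitial fibroblasts, had 103, 130.1 and 104 CPM in Ang II + losartan hearts. It had 196, 149 and 181 CPM in Ang II hearts and 89.1, 89.3 and 90.9 CPM in Control hearts. Its losartan-treated libraries were above all Control libraries. Myofibroblast and smooth muscle markers had a median of 0.35 over 14 genes, with 4 higher (5.54% of all tested genes). Without losartan replicate 2 the median was 0.061, with 2 higher and 1 lower, and without Control replicate 2 it was 0.28, with 3 higher. Fap, a surface protease of activated fibroblasts, had 8.97, 7.82 and 6.704 CPM in Ang II + losartan hearts, 8.81, 7.35 and 11.4 CPM in Ang II hearts and 5.34, 4.79 and 6.09 CPM in Control hearts. Ltbp2, which binds microfibrils of elastic tissue, had 34.6, 35.04 and 18.7 CPM in Ang II + losartan hearts, 110.5, 65.6 and 124 CPM in Ang II hearts and 19.4, 7.43 and 16.02 CPM in Control hearts. For Fap the losartan-treated and Control libraries did not overlap, and for Ltbp2 losartan replicate 3 was within the Control range. Acta2, the smooth muscle actin that marks myofibroblasts and vessels alike, had 107, 261 and 254 CPM in Ang II + losartan hearts and 189, 187 and 161 CPM in Control hearts, with losartan replicate 1 below all 3 Control libraries.

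**Figure D3:**
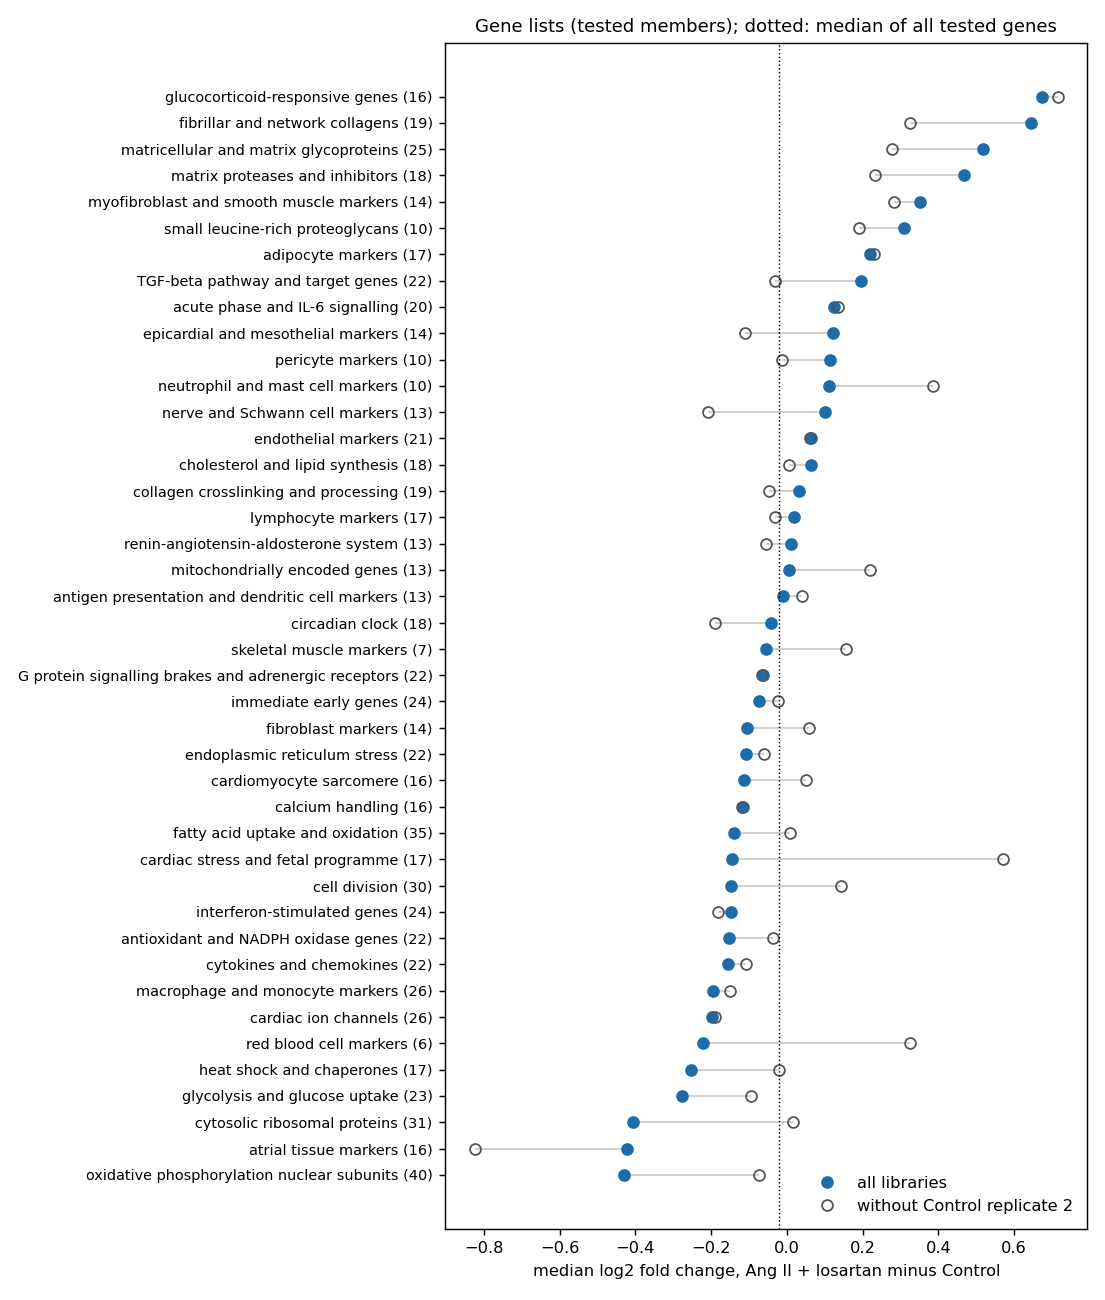
Median log2 fold change of Ang II + losartan minus Control (x axis) for 42 gene lists (rows, with the number of tested members), with all libraries as filled points and without Control replicate 2 as open points. The collagens (0.65 and 0.32) and matricellular genes (0.52 and 0.28) stay on the right in both, while oxidative phosphorylation (-0.43 and -0.07) and the ribosomal proteins (-0.41 and 0.02) come close to the median of all genes without that library.

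Genes of the TGF-beta and BMP pathways lay on both sides of Control. The 22 tested genes had a median log2 fold change of 0.20. With an unadjusted p below 0.05, 5 were higher and 3 lower (5.54% and 5.16% of all tested genes). Without Control replicate 2 the median was -0.03, with 1 higher and 1 lower, and without losartan replicate 1 there were 0 higher and 1 lower. Ccn2, a matricellular target of TGF-beta, had 290.5, 167 and 72.4 CPM in Ang II + losartan hearts, 224, 191 and 245 CPM in Ang II hearts and 101, 95.2 and 73.1 CPM in Control hearts, with replicate 1 the highest of these 9 libraries and replicate 3 below every Control library. Tgfb1 itself had 17.7, 20.6 and 21.6 CPM in Ang II + losartan hearts, 22.6, 24.2 and 27.6 CPM in Ang II hearts and 22.01, 32.7 and 21.7 CPM in Control hearts. The losartan-treated libraries were the lowest, by a small margin (log2 fold change -0.35 ± 0.17, unadjusted p = 0.0554). Smad6, an inhibitory Smad that restrains BMP and TGF-beta signalling, was the gene of this list with the smallest p and lay below Control. It had 6.83, 7.28 and 7.93 CPM in Ang II + losartan hearts, 18, 14.1 and 13.3 CPM in Ang II hearts and 11.8, 12.7 and 9.804 CPM in Control hearts. The 3 groups did not overlap, with losartan-treated libraries at the bottom and Ang II libraries at the top. Its log2 fold change was -0.64 ± 0.15 against Control (unadjusted p = 0.00104; adjusted p = 0.0918 in DESeq2) and -1.04 against Ang II (adjusted p = 0.123 in edgeR). Leaving out any 1 library kept its log2 fold change against Control between -0.73 and -0.55. Id1 and Id3, inhibitors of differentiation that BMP signals induce, were the other 2 genes lower with an unadjusted p below 0.05 and were chosen after their values were seen. Id1 had 21.4, 23.6 and 27.2 CPM in Ang II + losartan hearts, 27.1, 26.2 and 24.7 CPM in Ang II hearts and 28.9, 62 and 26.2 CPM in Control hearts. Id3 had 40.8, 47.5 and 44.99 CPM in Ang II + losartan hearts, 66.3, 57.6 and 59.7 CPM in Ang II hearts and 52.1, 78.8 and 46.6 CPM in Control hearts. For both genes losartan replicate 2 or 3 overlapped with Control replicate 3, and Control replicate 2 was the highest library of the 9.

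Promoters of Smad6, below Control, and of the matrix genes Cilp and Col8a1, above Control, are printed to set start regions of genes on either side of Control beside each other, and were chosen after their values were seen. They are RefSeq sequences of GRCm38.p6, 250 bases before to 50 after the annotated start, read 5′ to 3′ on the gene's strand. Capitals mark the Smad palindrome GTCTAGAC and the GC box GGGCGG, which Sp1-like factors bind, searched on both strands (the GC box reads CCGCCC on the other strand), and the motifs do not overlap one another.
Smad6 (chr9:64022010-64022309, minus strand): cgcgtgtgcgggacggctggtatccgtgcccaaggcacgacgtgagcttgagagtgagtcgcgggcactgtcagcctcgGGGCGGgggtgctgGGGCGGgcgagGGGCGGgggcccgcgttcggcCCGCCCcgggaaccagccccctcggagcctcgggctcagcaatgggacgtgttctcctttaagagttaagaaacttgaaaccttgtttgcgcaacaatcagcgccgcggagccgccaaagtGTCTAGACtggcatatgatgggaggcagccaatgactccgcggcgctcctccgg
Cilp (chr9:65264930-65265229, plus strand): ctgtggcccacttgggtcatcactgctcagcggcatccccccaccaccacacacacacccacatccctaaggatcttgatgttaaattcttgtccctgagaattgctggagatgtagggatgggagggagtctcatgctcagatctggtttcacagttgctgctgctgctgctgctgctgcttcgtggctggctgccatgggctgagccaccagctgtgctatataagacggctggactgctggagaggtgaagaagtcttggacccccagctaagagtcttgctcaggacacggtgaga
Col8a1 (chr16:57754688-57754987, minus strand): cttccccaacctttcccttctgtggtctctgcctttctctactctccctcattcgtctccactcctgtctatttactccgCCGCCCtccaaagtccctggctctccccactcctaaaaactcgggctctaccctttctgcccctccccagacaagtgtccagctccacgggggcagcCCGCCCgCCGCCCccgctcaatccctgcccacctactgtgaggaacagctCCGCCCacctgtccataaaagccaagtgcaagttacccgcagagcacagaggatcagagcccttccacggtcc
The palindrome was in the Smad6 window, where it spans the start, and in 0.213% of 32851 promoters of this length. The GC box occurred 4 times in Smad6 and 4 times in Col8a1, not in the Cilp window, and in 35.7% of all promoters. A match of letters is a description of the window and says nothing about binding in these hearts.

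Among cardiomyocyte genes, DESeq2 called the slow myosin and nexilin, both higher in losartan-treated hearts. Myh7 had 876, 595 and 302 CPM in Ang II + losartan hearts, 838, 499 and 601 CPM in Ang II hearts and 224, 88.5 and 278 CPM in Control hearts. Every losartan-treated library was above Control, by little in replicate 3, and the group overlapped with Ang II (log2 fold change 1.59 ± 0.43 against Control, adjusted p = 0.0483 in DESeq2; -0.13 against Ang II). Myh6, the fast adult myosin whose gene lies next to it, had 15033, 21955 and 24009 CPM in Ang II + losartan hearts and 19999.9, 9040.5 and 24589.5 CPM in Control hearts, with Control replicate 2 far below the rest. Xirp2, an actin-binding protein of intercalated discs, had 1218, 838 and 937 CPM in Ang II + losartan hearts, 896, 896 and 1082 CPM in Ang II hearts and 451, 742 and 556 CPM in Control hearts, so that its losartan-treated libraries overlapped with Ang II and not with Control. Nexn, nexilin, a Z-disc and junctional protein, had 709, 497 and 548 CPM in Ang II + losartan hearts, 478, 487 and 472 CPM in Ang II hearts and 395, 307 and 403 CPM in Control hearts. For Nexn the losartan-treated libraries were above Ang II as well as Control libraries (log2 fold change against Control 0.67 ± 0.16, adjusted p = 0.0217 in DESeq2).

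Nppb, brain natriuretic peptide, had 427, 277 and 214 CPM in Ang II + losartan hearts, 370.4, 354 and 424 CPM in Ang II hearts and 139, 1111 and 116 CPM in Control hearts. Control replicate 2 was the highest of the 9 libraries, and without it the losartan-treated libraries were all above Control. Nppa, the atrial peptide, ranged from 42.9 to 614 CPM in Ang II + losartan hearts and from 158 to 396 CPM in Control hearts. Over the 17 tested genes of the cardiac stress and fetal programme the median log2 fold change was -0.14 and 0.57 without Control replicate 2, with 3 and 5 genes higher and 1 lower in both cases at an unadjusted p under 0.05. The 16 sarcomere genes had a median of -0.11, with 1 higher and 0 lower (0.05, with 0 in either direction, without Control replicate 2). Cardiac ion channels had a median of -0.20 over 26 genes, with 0 higher and 2 lower, and 4 lower without Control replicate 2. With all libraries, 5.54% of all tested genes were higher and 5.16% lower at that p. Kcnh2, the pore of the rapid delayed rectifier potassium current, had 50.5, 72.1 and 66.03 CPM in Ang II + losartan hearts, 81.03, 81.9 and 66.8 CPM in Ang II hearts and 83.4, 81.1 and 97.3 CPM in Control hearts. Kcnj11, the pore of the ATP-sensitive potassium channel, had 44.7, 54.6 and 56.8 CPM in Ang II + losartan hearts, 46.8, 57.2 and 48.7 CPM in Ang II hearts and 65.02, 65.3 and 63.8 CPM in Control hearts. Both genes were below every Control library in each losartan-treated library (log2 fold changes -0.47 ± 0.15 and -0.31 ± 0.13).

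RNA of the receptor that losartan blocks was lower in each losartan-treated library than in each Control library. Agtr1a, the main mouse type 1 receptor, had 32.5, 31.5 and 30.4 CPM in Ang II + losartan hearts, 24.04, 31.9 and 22.6 CPM in Ang II hearts and 39.2, 39.5 and 39.97 CPM in Control hearts. Values within each of the losartan-treated and Control groups were close together and the groups did not overlap. The log2 fold change of -0.33 ± 0.13 had an unadjusted p of 0.0277 and an adjusted p of 0.456. Agtr1b and the type 2 receptor Agtr2 had 2 reads each over all 12 libraries, and renin (Ren1) had 19, so that they were not tested. Ace, the enzyme that forms Ang II, had 83.8, 106 and 104 CPM in Ang II + losartan hearts, 132, 102 and 128 CPM in Ang II hearts and 81.8, 64.3 and 90.4 CPM in Control hearts. Losartan replicate 1 was within the Control range for Ace and the other 2 were above it. Across the 13 tested genes of the system the median was 0.01. With an unadjusted p below 0.05, 0 were higher and 1 lower (5.54% and 5.16% of all tested genes). Mme and Lnpep of this list were on the high side, with log2 fold changes of 0.25 and 0.70 (unadjusted p = 0.0661 and 0.0533 in edgeR). Mme was above every Control library, and Lnpep overlapped with Control. Among genes of G protein signalling, Rgs5, a pericyte-rich brake on Gq signals, had 997, 889 and 942 CPM in Ang II + losartan hearts, 932, 826 and 817 CPM in Ang II hearts and 673, 549.5 and 788 CPM in Control hearts. Adra1b, an alpha-adrenergic receptor of cardiomyocytes, had 27.3, 24.9 and 29.2 CPM in Ang II + losartan hearts, 26.4, 31.4 and 24.5 CPM in Ang II hearts and 40.6, 32.6 and 33.9 CPM in Control hearts. Neither gene overlapped between losartan-treated and Control libraries, Rgs5 being higher and Adra1b lower in losartan-treated hearts. The list of 22 such genes had 3 higher and 3 lower, and 2 higher and 2 lower without Control replicate 2.

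Several DESeq2 calls were not matrix genes, and for some of these the losartan-treated libraries lay above the Ang II level. Spata1, known from testis, had 3.49, 3.05 and 3.46 CPM in Ang II + losartan hearts, 2.35, 2.201 and 2.92 CPM in Ang II hearts and 1.75, 1.45 and 1.75 CPM in Control hearts. It was 2.01-fold of Control, at a low level and with no overlap. The zinc finger gene Zfp979 had 11.4, 12 and 12.3 CPM in Ang II + losartan hearts, 9.99, 10.7 and 10.2 CPM in Ang II hearts and 7.64, 8.34 and 8.09 CPM in Control hearts, and was also called by voom with quality weights (adjusted p = 0.0228). Bod1l, which protects stalled replication forks, had 66.3, 55.7 and 62.3 CPM in Ang II + losartan hearts, 53.2, 48.1 and 47.5 CPM in Ang II hearts and 45.6, 23.8 and 32.7 CPM in Control hearts. In Spata1, Zfp979 and Bod1l each losartan-treated library exceeded each Ang II library, as it did in 9.22% of all tested genes. Their log2 fold changes against Ang II were 0.42, 0.21 and 0.31, with adjusted p values of 0.572, 0.642 and 0.704 in edgeR. Yes1, a Src family kinase, averaged 31.4 ± 2.31 CPM in Ang II + losartan hearts, 26.9 ± 0.936 CPM in Ang II hearts and 20.9 ± 3.36 CPM in Control hearts (SD, n = 3 each). The Golgi tether Golga4 averaged 712 ± 16.2 CPM in Ang II + losartan hearts, 614 ± 19.1 CPM in Ang II hearts and 531 ± 43.8 CPM in Control hearts, and the translation factor Eif5b 138 ± 9.13, 124 ± 4.08 and 98.3 ± 13.2 CPM in the same groups. These differences from Control were small, with log2 fold changes of 0.59 ± 0.13, 0.42 ± 0.12 and 0.49 ± 0.12. Ptbp3, Dnm3os and Olfr558 were also higher by DESeq2, with log2 fold changes of 0.39 ± 0.10, 1.51 ± 0.38 and 0.69 ± 0.15.

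On the low side, Ano10 was the 1 gene that DESeq2 called (adjusted p = 0.00613). It was also called by voom with quality weights (adjusted p = 0.0468). This TMEM16 family membrane protein, on chr9:122175874-122294423, had 32.5, 40.3 and 43.9 CPM in Ang II + losartan hearts, 31.2, 40.3 and 35.9 CPM in Ang II hearts and 75.8, 78.5 and 56.7 CPM in Control hearts. Losartan-treated and Ang II libraries overlapped, and both groups were below every Control library (log2 fold change -0.85 ± 0.16 against Control for losartan-treated hearts and -0.97 for Ang II hearts, of which the second passed with an adjusted p of 0.0203 in edgeR). Armh4, a transmembrane protein, had the same form, with 19.8, 16.1 and 16.6 CPM in Ang II + losartan hearts, 17.8, 17.9 and 16.6 CPM in Ang II hearts and 24.8, 22.5 and 26.99 CPM in Control hearts. Voom with quality weights called Armh4 (adjusted p = 0.0359), and DESeq2 did not. Other genes had losartan-treated libraries below both other groups. Tppp3, a microtubule-associated protein, had 17.6, 19.7 and 19.02 CPM in Ang II + losartan hearts, 36.5, 27.4 and 29.05 CPM in Ang II hearts and 28.5, 28.8 and 23.9 CPM in Control hearts. Cotl1, an actin-binding protein abundant in blood cells, had 12.3, 10.54 and 11.3 CPM in Ang II + losartan hearts, 17.9, 16.8 and 20.4 CPM in Ang II hearts and 17.1, 22.6 and 13.3 CPM in Control hearts. For both, Ang II and Control libraries overlapped and losartan-treated libraries lay below them (below every Ang II library in 10.5% of all tested genes), and the difference from Ang II did not pass the edgeR threshold (log2 fold changes -0.72 and -0.69, adjusted p = 0.166 and 0.309). Hey1, a transcriptional target of Notch, had 7.95, 12 and 12.8 CPM in Ang II + losartan hearts, 14.7, 13.5 and 11.2 CPM in Ang II hearts and 15.9, 20.4 and 15.3 CPM in Control hearts. Both of its treated groups were below Control. The circadian repressor Bhlhe40 had 32.3, 63.7 and 50.01 CPM in Ang II + losartan hearts, 54.8, 59.4 and 59.97 CPM in Ang II hearts and 79.4, 73.3 and 101 CPM in Control hearts. Losartan replicate 1 was the lowest library of both genes. The remaining genes that the naming rule gave on this side were Srprb, Helt, Mrps6, Btbd6, Tubb4b, Slfn2, Casq1 and Tmem86a. Their log2 fold changes lay between -1.09 (Helt, with only 13 to 39 reads per library of these groups) and -0.43 (Srprb). The rule itself required no overlap between the groups.

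**Figure D4:**
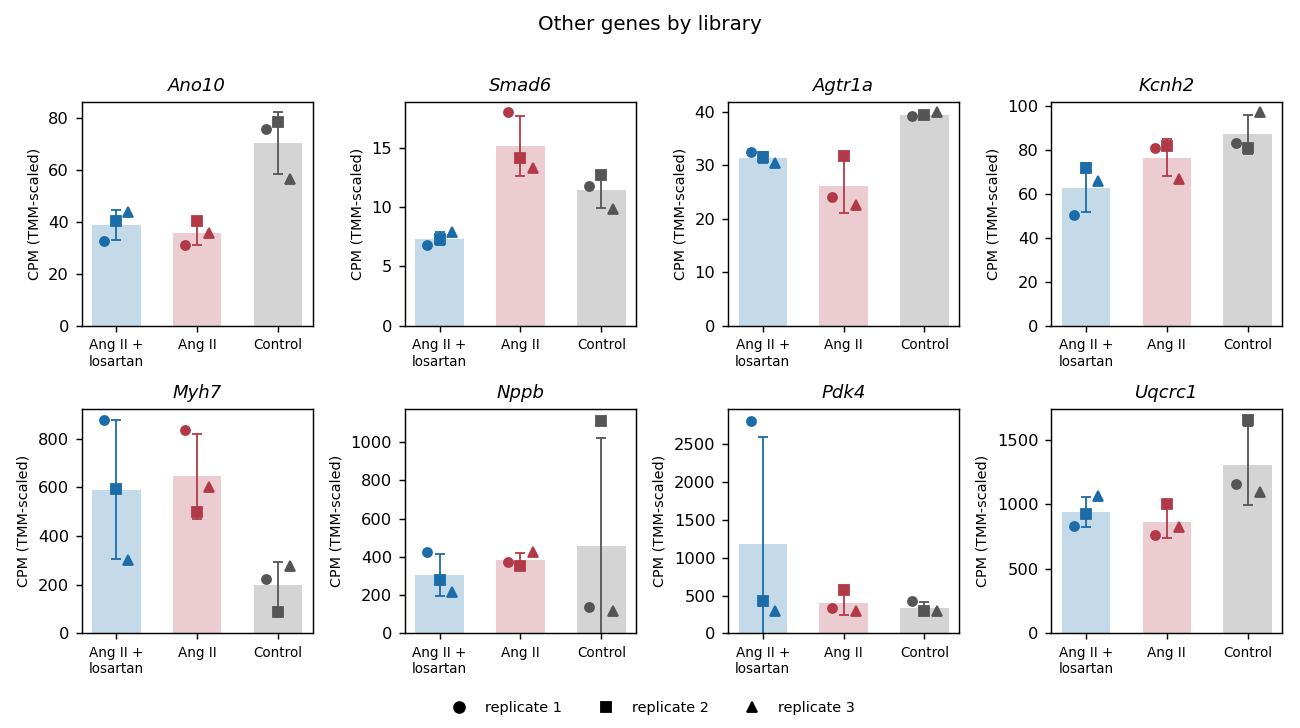
Levels in TMM-scaled CPM (y axis, from 0) of 8 genes outside the matrix in Ang II + losartan, Ang II and Control hearts (x axis), with single libraries as symbols, means as bars and SD over 3 libraries as whiskers, which end at the axis where they would pass 0. Ano10, Smad6, Agtr1a and Kcnh2 have no overlap between losartan-treated and Control libraries, whereas single libraries set the means of Nppb (Control replicate 2) and Pdk4 (losartan replicate 1). For Ano10 and Smad6 the naming rule required no overlap.

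For energy metabolism and the ribosome, the medians came close to that of all genes once Control replicate 2 was left out. All 40 nuclear subunits of oxidative phosphorylation had a negative log2 fold change, with a median of -0.43 and 11 lower with an unadjusted p below 0.05. Without Control replicate 2 the median was -0.07 and 0 were lower, and without losartan replicate 2 it was -0.36 with 0 lower. Uqcrc1, which belongs to the core of complex III, had 833, 922 and 1065 CPM in Ang II + losartan hearts, 764, 1006 and 824 CPM in Ang II hearts and 1159, 1654 and 1097 CPM in Control hearts, with all losartan-treated libraries below Control and replicate 2 the highest Control library. The 31 ribosomal proteins had a median of -0.41 with 1 lower, and of 0.02 with 0 lower without Control replicate 2. Glycolysis genes had a median of -0.28 over 23 genes, with 5 lower, and of -0.10 with 1 lower without Control replicate 2. Without losartan replicate 1 there were 0 lower. Fatty acid genes had a median of -0.14 over 35 genes, with 1 higher and 1 lower, and of 0.0086 with 0 in either direction without Control replicate 2. With all libraries, 5.54% of all tested genes were higher and 5.16% lower at that p. In the cell division list, 4 of 30 genes were lower and the median was -0.15, while without Control replicate 2 it was 0.14 with 1 higher and 2 lower. The replication helicase subunit Mcm5 had 3.3, 4.89 and 4.89 CPM in Ang II + losartan hearts, 4.48, 4.61 and 6.896 CPM in Ang II hearts and 6.81, 9.96 and 6.38 CPM in Control hearts, and all losartan-treated libraries were below Control.

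The immune lists had no common direction. Of macrophage, cytokine and interferon genes, 7 of 26, 5 of 22 and 5 of 24 had a positive log2 fold change. Of acute phase and IL-6 genes, 12 of 20 were positive, and of all tested genes 7235 of 15336. Macrophage and monocyte markers had a median log2 fold change of -0.20 over 26 genes, with 1 higher and 4 lower with an unadjusted p below 0.05 and 0 in either direction without Control replicate 2. Ccr2, the chemokine receptor of recruited monocytes, was the higher one, with 13.2, 9.16 and 6.92 CPM in Ang II + losartan hearts, 16.9, 12.3 and 28.9 CPM in Ang II hearts and 5.09, 2.85 and 6.09 CPM in Control hearts. Cd68, a lysosomal protein of macrophages, had 8.46, 6.73 and 8.01 CPM in Ang II + losartan hearts, 11.6, 10.7 and 14.9 CPM in Ang II hearts and 11.4, 17.2 and 10.4 CPM in Control hearts. C1qa, a complement subunit that resident macrophages make, had 48.7, 37.1 and 42.4 CPM in Ang II + losartan hearts, 52.9, 59.8 and 71.5 CPM in Ang II hearts and 59.7, 98.1 and 47.9 CPM in Control hearts. Ccr2 and Cd68 thus lay on opposite sides of Control in the same libraries. Serpina3n, an acute phase protease inhibitor, had 54.9, 25.2 and 21.2 CPM in Ang II + losartan hearts, 74.6, 52.7 and 144 CPM in Ang II hearts and 16.9, 14.9 and 16.2 CPM in Control hearts. Osmr, the oncostatin M receptor, had 50.3, 35.3 and 31.4 CPM in Ang II + losartan hearts, 46.8, 37.8 and 50.3 CPM in Ang II hearts and 30.9, 19.2 and 28.9 CPM in Control hearts. All losartan-treated libraries of Serpina3n and Osmr were above Control, replicate 3 by little. Acute phase and IL-6 genes had a median of 0.13 over 20 genes with 2 higher, and 0 higher without Control replicate 2 or without losartan replicate 1. Over all tested genes, the number higher also fell in those fits, from 849 (5.54%) to 554 and to 473. Cytokines and chemokines had a median of -0.16 over 22, with 1 lower. Interferon-stimulated genes had a median of -0.15 over 24, with 2 higher and 5 lower (5.54% and 5.16% of all tested genes). The interferon list without Control replicate 2 had 1 higher and 2 lower, and without losartan replicate 1 it had 2 higher and 1 lower. Ifitm3, an antiviral membrane protein, had 49.8, 60.7 and 61.9 CPM in Ang II + losartan hearts, 72.2, 73.3 and 81.7 CPM in Ang II hearts and 76.2, 126 and 66.6 CPM in Control hearts. Ifit2 of the same list was above every Control library, with 30.1, 27.6 and 30.2 CPM in Ang II + losartan hearts. It had 27, 25.5 and 31.3 CPM in Ang II hearts and 22.9, 19.4 and 26.6 CPM in Control hearts. Nox4, a hydrogen peroxide producing oxidase, had 15.2, 10.8 and 2.61 CPM in Ang II + losartan hearts, 19.1, 9.59 and 17.3 CPM in Ang II hearts and 3.17, 2.53 and 3.88 CPM in Control hearts. Losartan replicate 3 of Nox4 lay within the Control range while replicates 1 and 2 were in the Ang II range.

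Losartan replicate 1 carried a signal that the other 2 losartan-treated libraries did not. Pdk4, the kinase that shuts off pyruvate oxidation, had 2811, 423 and 293 CPM in Ang II + losartan hearts, 338, 575 and 289.6 CPM in Ang II hearts and 432, 291 and 291 CPM in Control hearts. Mt2, a metallothionein, had 119, 16.6 and 13.5 CPM in Ang II + losartan hearts and 9.81, 23.5 and 12.6 CPM in Control hearts. Fkbp5, a co-chaperone of the glucocorticoid receptor, had 63.6, 18.9 and 18.7 CPM in Ang II + losartan hearts and 15.8, 18.9 and 11.4 CPM in Control hearts. In each of these genes replicates 2 and 3 were within or near the Control range. The list of glucocorticoid-responsive genes, to which they belong, had a median log2 fold change of 0.67 over 16 genes and -0.04 without losartan replicate 1. Hmox1, heme oxygenase of the antioxidant list, had 88.2, 9.95 and 9.36 CPM in Ang II + losartan hearts and 9.98, 12.5 and 12.8 CPM in Control hearts, again with a single high library. Fkbp5 and Hmox1 were chosen after their values were seen. Without losartan replicate 1 the log2 fold changes of Mt2 and Hmox1 changed sign, to -0.01 and -0.28.

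Atrial and fat markers differed between libraries within both groups. The 16 atrial markers summed to 912 to 4378 CPM in Ang II + losartan hearts, 3373 to 5381 CPM in Ang II hearts and 1484 to 4269 CPM in Control hearts. As mean centred log2 CPM their score was -0.95, 0.74 and -2.47 in Ang II + losartan hearts and 0.71, -1.47 and 0.97 in Control hearts, so that each group held both low and high libraries. Bmp10, a defining marker, had 1.02, 0.711 and 0.0422 CPM in Ang II + losartan hearts. It had 507, 339.7 and 223 CPM in Ang II hearts and 177, 0.0538 and 10.47 CPM in Control hearts. Its losartan-treated libraries were all low and its Control libraries ranged widely. Other defining markers, Myl4, Myl7, Sln, Stard10 and Nppa, were higher in losartan replicate 2 than in losartan replicates 1 and 3. Scaled by library size alone, Myl4 had 66, 744 and 8.43 CPM in losartan-treated hearts and 426, 57.8 and 644 CPM in Control hearts. At an unadjusted p under 0.05, 2 of 17 adipocyte markers were higher (5.54% of all tested genes), and 1 when any single library of these groups was left out. Adipocyte markers summed to 6957 to 8529 CPM in Ang II + losartan hearts and 5481 to 6478 CPM in Control hearts. Most of that sum was lipoprotein lipase (Lpl), which cardiomyocytes also make. Lpl had 6528, 5378 and 6060.3 CPM in Ang II + losartan hearts and 5059.9, 3738 and 5133 CPM in Control hearts. The adipocyte score was -0.42, 0.93 and -0.99 in Ang II + losartan hearts and -0.04, -1.07 and -0.11 in Control hearts, with overlap. Adipoq, Plin1 and Cidec were higher in losartan replicate 2 than in losartan replicates 1 and 3. Scaled by library size alone, Adipoq had 1.06, 11.7 and 0.548 CPM in losartan-treated hearts and 3.997, 0.361 and 3.11 CPM in Control hearts. Ucp1, the uncoupling protein of brown fat, had 0, 22.7 and 0.0422 CPM in Ang II + losartan hearts and 0.167, 0 and 0.0417 CPM in Control hearts, high in replicate 2 alone. With the atrial score as a covariate, edgeR called 0 genes in the comparison with Control, and 3596 were at an unadjusted p under 0.05, beside 1640 without it. The log2 fold changes of Myh7 and Eln in that fit were 2.07 and 1.56, beside 1.59 and 1.28 in the main fit. For both genes these were the highest values over all alternatives. The part that atrial or fat tissue had in the other values was not tested.

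**Figure D5:**
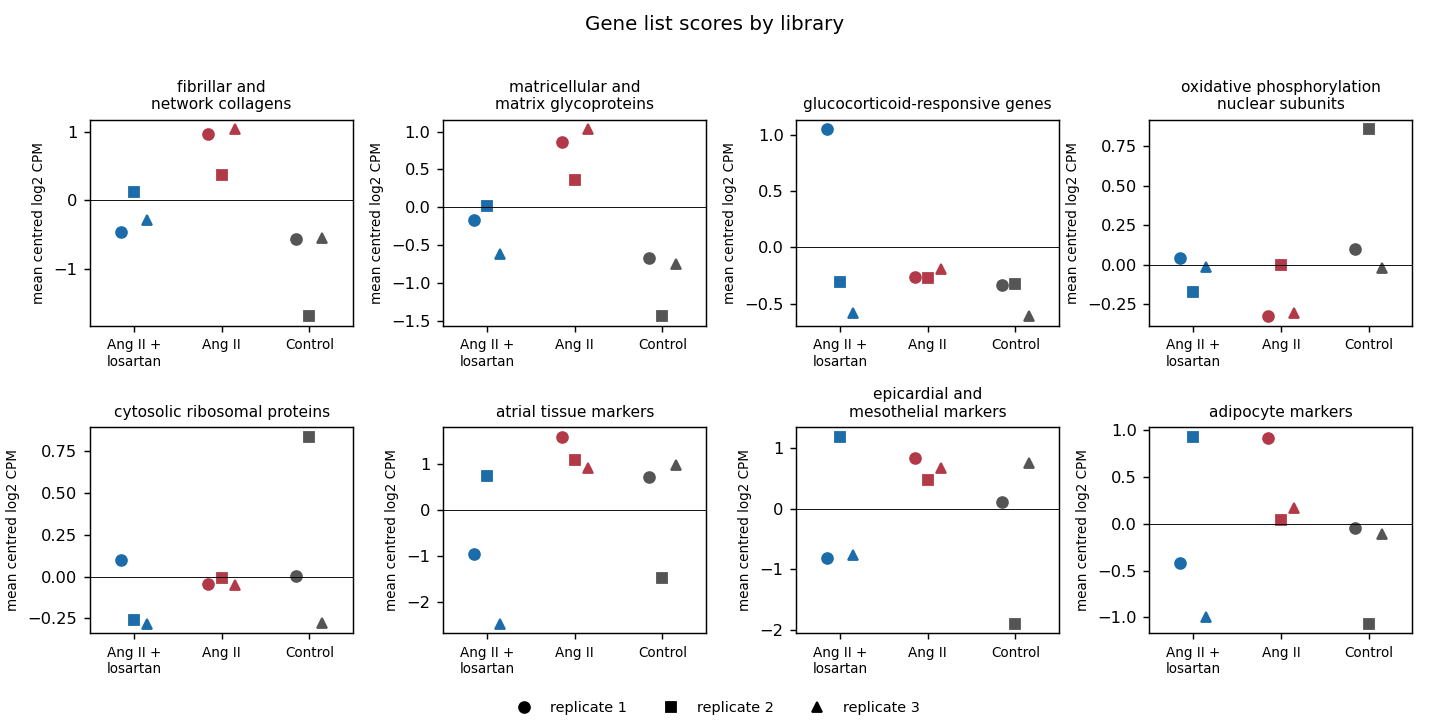
Mean centred log2 CPM (y axis) of 8 gene lists in each library of the Ang II + losartan, Ang II and Control groups (x axis), with 1 symbol per library. Collagens and matricellular genes are highest in Ang II hearts, losartan replicate 1 alone is high in the glucocorticoid-responsive list, Control replicate 2 alone is high in oxidative phosphorylation and ribosomal proteins, and the atrial and epicardial scores are low in losartan replicates 1 and 3 and Control replicate 2.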

How the data were processed

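The authors deposited raw read counts per Ensembl gene for 12 heart libraries, 3 in each of 4 groups, made per the labels' protocols from poly(A) RNA with an unstranded kit and single-end reads. HISAT2 2.1.0, featureCounts 2.0.0, fastp 0.20.0, edgeR 3.30.0 and the build GRCm38 are named in the submitters' processing notes without role or order. The annotation release is not given in the sources used here, and gene positions and symbols came from GENCODE M21. Symbols were found for 47224 of 47729 genes.

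The counts were fitted in edgeR 4.0.16 (R 4.3.3) with TMM scaling, its default filter on low counts, 1 mean per group over all 12 libraries and a quasi-likelihood F test with Benjamini-Hochberg adjustment over 15336 genes. The threshold was an adjusted p of 0.05, and the common biological coefficient of variation was 0.189. Log2 CPM for scores used a prior count of 2. DESeq2 1.42.0, limma 3.58.1 (voom, with and without quality weights), other scalings and filters, an atrial covariate, a replicate block and leaving out each library were alternatives. Scripts were tested on simulated data. Counting depth limits the precision of genes with few reads.

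The naming rule took up to 15 genes per direction past the threshold with no overlap and at least 1 CPM, filled with the smallest p, plus 3 of smallest p per list and a list of 20 known genes. For the genes taken per direction, no overlap with Control was therefore set by the rule. Genes that DESeq2 called and 6 others (Thbs4, Cthrc1, Fkbp5, Hmox1, Id1, Id3) were named after their values were seen. The 42 lists hold 825 genes, of which 780 were tested. A further gene that DESeq2 called is not reported here. Members and lists were chosen with earlier results of these data known. All comparisons with Control share its 3 libraries.

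Libraries of the same group were not duplicates of each other, since the chi-square per degree of freedom between replicates was 11.1 to 135. Libraries of different groups were not compared in this way. Replicate numbers were not taken to pair the samples.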

Additional observations from a re-analysis of the deposited data

How the results depend on the processing

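In losartan-treated against Control hearts, edgeR called 0 genes under every scaling, filter, block, covariate and left-out library that was run, while DESeq2 called 22 and voom with quality weights 3. In losartan-treated against Ang II hearts, with 0 called, DESeq2 gave 108 genes, voom with quality weights 598, no filter on low counts 30, a fit of only the groups compared 1, and leaving out single libraries 0 to 3 (3 without Control replicate 2). In Ang II against Control hearts, with 83 called, DESeq2 gave 513, voom 51, voom with quality weights 2617, no filter 167, only the groups compared 20, the atrial covariate 50 and leaving out single libraries 8 to 148. The cause of these shifts was not tested. With the replicate number as a block, the comparison with Control had 0 calls, and same-numbered losartan-treated and Control libraries correlated at -0.002, -0.327 and -0.122, so the number was not taken as a pairing. Without TMM, on plain library sizes, the median over all genes was 0.03 in losartan-treated against Control hearts, -0.12 in losartan-treated against Ang II hearts and 0.17 in Ang II against Control hearts.

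Of 85 named genes followed through the alternatives, the signs of 9 against Control changed under some. Nppb (main log2 fold change -0.57) was at 0.15 with voom, 0.94 with quality weights, 1.27 without Control replicate 2 and 1.47 without that library and losartan replicate 3 together. Nppa (main 0.15) was at -0.45 with voom and -0.16 with the replicate block. Leaving out single libraries gave -1.02 to 1.27 for Nppb, -1.15 to 0.66 for Nppa, -0.49 to 0.055 for Myl2, -0.13 to 0.50 for Myh6, -0.019 to 0.19 for Tnnt2, -0.28 to 2.06 for Hmox1, -0.012 to 2.15 for Mt2 and -1.54 to 8.05 for Ucp1. Without Control replicate 2, Nppa was at -0.085. With losartan replicate 3 also left out, Myl2 was at 0.093 and Myh6 at -0.26, and Actn2 was at 0.042 with quality weights.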
